A study of Mus musculus with 2 samples.

Results

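The nuclear genes for the subunits of respiratory complexes III, IV and V were examined in mouse glioblastoma stem cells with and without Stat5b knockdown. Members were the gene symbols of the array that start with Uqcr, Cox4, Cox5, Cox6, Cox7, Cox8 or Atp5, together with Cyc1. They came to 45 of the 26891 gene symbols on the array, and 41 of them name a subunit: 9 of complex III, 17 of complex IV and 15 of complex V. The other 4 are Cox7a2l, Atp5s, Atp5sl and the pseudogene Atp5c1-ps, and they are given apart. The 45 genes were read by 67 probes.

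RNA was hybridised to 1 single-colour array for each of 2 groups. The Stat5b-knockdown cells carried a lentiviral short hairpin RNA against Stat5b, a transcription factor activated downstream of cytokine and growth factor receptors. The control cells carried a non-target hairpin in the same kind of vector. Both groups were stably transduced derivatives of 1 murine line, which was grown as neurospheres from a brain tumour induced with the SB transposon and kept with EGF and bFGF. The age and strain of the mice and the number of hairpins are not given in the sources used here. The comparison asks how lowering Stat5b alters transcript levels in these cells.

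Complexes III, IV and V are the last steps of oxidative phosphorylation in the inner mitochondrial membrane. Complex III passes electrons from ubiquinol to cytochrome c, complex IV passes them from cytochrome c to oxygen, and both pump protons. Complex V, the ATP synthase, lets the protons flow back and makes ATP, and each of these complexes is assembled from many nuclear-encoded subunits and a few that the mitochondrial genome encodes.

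Values are the scanner's background-corrected processed signals. A difference is the log2 level of the Stat5b-knockdown array minus that of the control array, each level being log2 of the signal less the 75th percentile of its array. A gene with several probes has the mean over its probes that were detected (flagged well above background) in both groups, and its signal is the matching geometric mean. With 1 array per group there was no test and no p-value, and the ± beside a difference is the scanner software's own error, which does not cover differences between cultures. Stat5b itself had a signal of 498 in its brighter probe on the knockdown array, against 1991 on the control array, or 25% of control. The signal at the 75th percentile was 493.6 on the knockdown array and 493.2 on the control array, 58.6% of probes on the knockdown array and 59.5% on the control array were well above background, and 0 spots were saturated.

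The labelled cell type was set against marker genes. Of 6 neural and glioma stem cell markers, 4 were well above background on the knockdown array and 3 on the control array. Their summed signals were 104543 on the knockdown array and 114378 on the control array. Nes and Vim made up most of these sums, while Sox2 and Fabp7 did not stand well above background in either group. Olig2 did so on the knockdown array alone, at 53.2 against 6.28 on the control array. Of 5 immune cell markers, 3 were detected on each array, Aif1 and Cx3cr1 not, and the summed signals were 10280 on the knockdown array and 8106 on the control array. Ptprc, detected by 1 of its 7 probes, had 4831 on the knockdown array and 3288 on the control array, a difference of 0.55. Itgam was at 0.11 and Csf1r at 0.22, the latter with probes from -0.10 to 0.54. Of 4 astrocyte markers, 3 were detected on each array, with sums of 260 on the knockdown array and 159 on the control array. They were not the same genes. S100b was detected on the knockdown array alone, at 122 against 9.22 on the control array. Gfap was detected on the control array alone, at 23.2 against 15.1 on the knockdown array. Of 3 endothelial markers, 2 were detected on each array, with sums of 113 on the knockdown array and 141 on the control array. The part of other cell types in the results was not tested. In such bulk RNA, a change in the share of cells of a type and a change in RNA per cell cannot be told apart.

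Most subunit genes of the 3 complexes were slightly higher on the Stat5b-knockdown array. Of the 43 members measured on both arrays, 34 lay above 0, which is 79.1% of them, against 51.1% of all 16354 genes measured. The median difference of the members was 0.17, with an interquartile range of 0.05 to 0.25, and that of all genes was 0.01, with an interquartile range of -0.24 to 0.28. A log2 difference of 0.32 or more in size was used as a rule of size. It was passed upward by 4 members, Cox7a1, Cox6a2, Uqcr11 and Atp5o, or 9.30% against 22.3% of all genes, and with quantile normalization by 7. It was passed downward by 3 members, Atp5d, Uqcrc2 and Uqcrfs1, or 6.98% against 19.7% of all genes. A 2-fold difference was reached by 0 members, while 3.66% of all genes were 2-fold higher and 2.41% 2-fold lower. Most members thus lay on one side of 0, with small differences. Most are bright genes, which differ less than dim ones, so these shares are set against genes of like level further on.

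**Figure D1:**
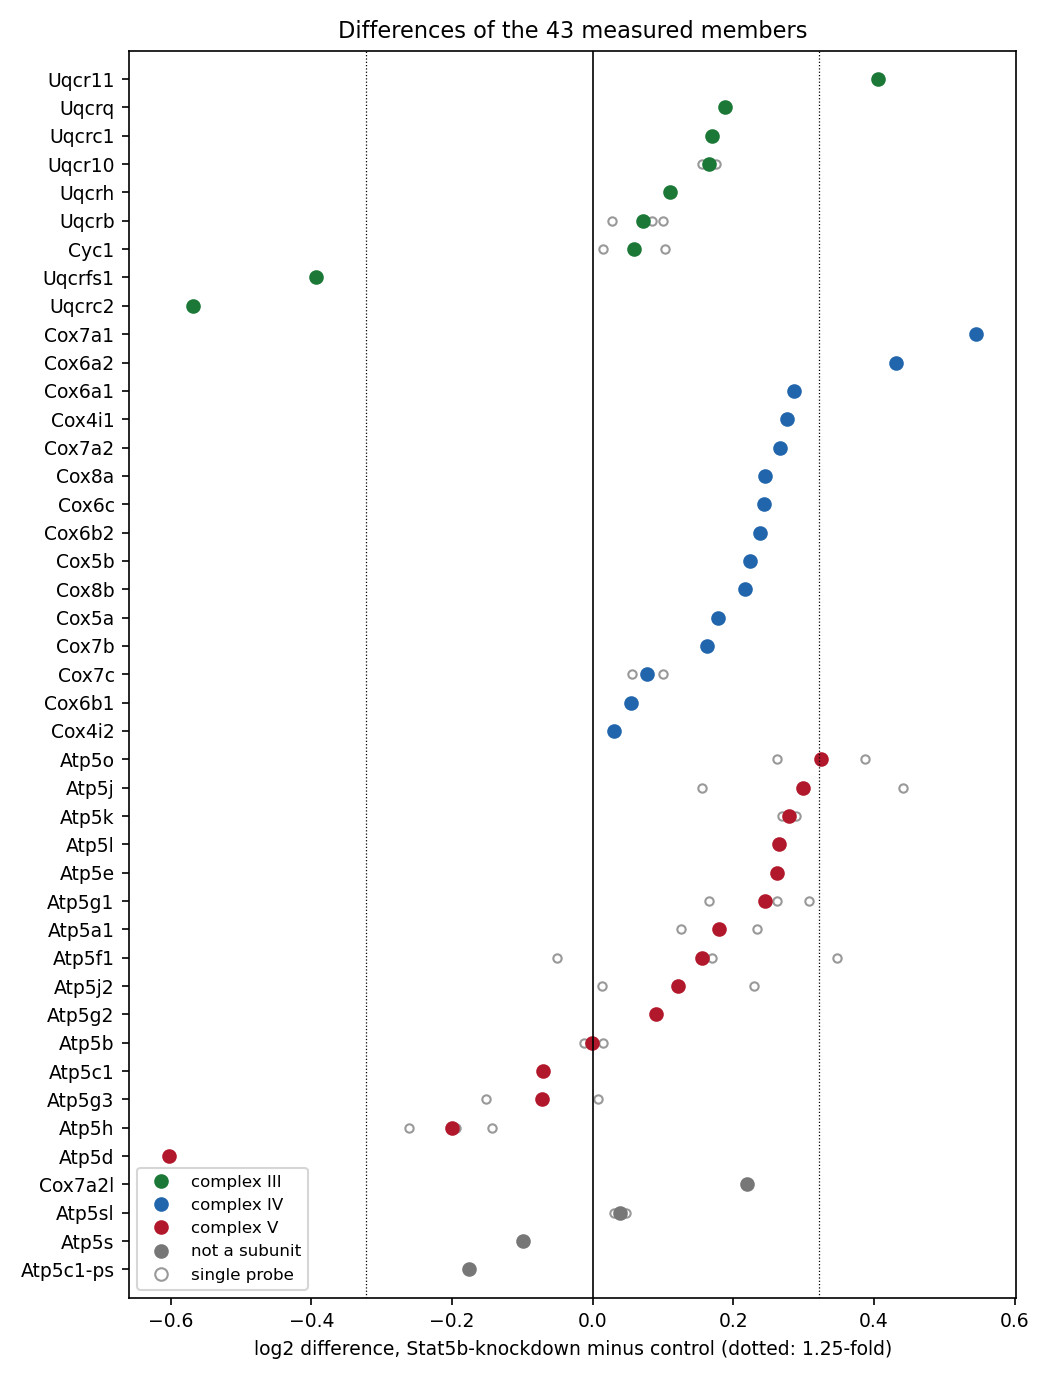
Log2 difference, Stat5b-knockdown minus control, of each of the 43 measured members (horizontal axis), sorted within complexes III, IV and V, with genes that are no subunit last. Filled points are gene means, open circles single probes of genes with several, and dotted lines the size rule of 0.32; all 15 complex IV genes lie above 0, while Atp5d, Uqcrc2 and Uqcrfs1 lie beyond the lower dotted line.

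Complex III had a median difference of 0.11, with 7 of 9 genes above 0 and 2 below. The 2 that were lower are a core protein and a redox subunit. Uqcrc2, one of the core proteins that face the matrix, had a signal of 11988 on the knockdown array and 17756 on the control array. The knockdown level was 67.4% of control (log2 difference -0.57 ± 0.20). Its partner Uqcrc1 had 23700 on the knockdown array and 21042 on the control array, a difference of 0.17 ± 0.20, so the core pair lay on opposite sides of 0.

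Of the redox subunits, Uqcrfs1 encodes the Rieske iron-sulfur protein, which takes electrons from ubiquinol. Its signals were 12932 on the knockdown array and 16966 on the control array, a difference of -0.39 ± 0.20. A second Uqcrfs1 probe gave no usable signal, at 3.17 on the knockdown array and 2.91 on the control array, and was not well above background. With that probe averaged in, when the filter on dim probes was dropped, the gene was at -0.14, short of the size rule. Cyc1, the cytochrome c1 that takes electrons from the Rieske protein, had 73436 on the knockdown array and 70438 on the control array, and its probes differed by 0.01 and 0.10. The 2 redox genes thus differed from each other by more than the Cyc1 probes did.

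All 5 small subunits of complex III were above 0, with a median of 0.17. The highest was Uqcr11, with 43164 on the knockdown array and 32538 on the control array, a 1.33-fold difference (0.41 ± 0.20). Uqcrq had 113647 on the knockdown array and 99615 on the control array, a difference of 0.19. The hinge protein gene Uqcrh had 76938 on the knockdown array and 71224 on the control array, a difference of 0.11. Uqcr10, with 2 probes at 0.16 and 0.18, and Uqcrb, with 3 probes from 0.03 to 0.10, completed the group. Uqcrb was the lowest at 0.07, with 1693 on the knockdown array and 1610 on the control array. Among its probes, 1 was dim, at 20.3 on the knockdown array and 19.1 on the control array. Apart from Uqcr11, these genes stayed short of the size rule.

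Complex IV was the most uniform of the 3. All 15 of its measured genes lay above 0, from 0.03 to 0.54, with a median of 0.24. Many of its subunits exist as isoforms, a widely expressed one and others known from muscle, lung or testis. The 6 widely expressed isoforms had a median of 0.26. Cox6a1 had a signal of 163284 on the knockdown array and 133805 on the control array, a difference of 0.29 ± 0.20 and the highest of these. Cox4i1, whose protein is a site of regulation by ATP, had 85004 on the knockdown array and 70120 on the control array, a difference of 0.28. Cox7a2 at 0.27 and Cox8a at 0.25 lay close to them and Cox7b was at 0.16. Cox6b1, with 5298 on the knockdown array and 5095 on the control array, was the lowest at 0.06.

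Of the 7 isoforms with restricted expression, 5 were measured, with a median of 0.24. Cox7a1, the isoform of heart and skeletal muscle, had 3085 on the knockdown array and 2113 on the control array. That 1.46-fold difference (0.54 ± 0.20) was the highest of all members. Cox6a2, also a heart and muscle isoform, had 1487 on the knockdown array and 1102 on the control array, a 1.35-fold difference (0.43 ± 0.20). Both genes were read by 1 probe each, so no second probe bears on their values. The Cox7a1 probe is shown because it carries this value. It is a 60-base oligonucleotide of the deposited array table, from a gene on chromosome 7.
Cox7a1 probe: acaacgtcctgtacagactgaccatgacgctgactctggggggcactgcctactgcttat

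Cox8b, the third muscle isoform, had 869 on the knockdown array and 747 on the control array, a difference of 0.22. Cox6b2, known from testis, had 306 on the knockdown array and 259 on the control array, a difference of 0.24 that became 0.12 after normexp background correction. Cox4i2, known from lung and as a gene induced by low oxygen, had 329 on the knockdown array and 321 on the control array, at 0.03 the lowest of complex IV. The testis isoforms Cox7b2, with signals of 6.74 on the knockdown array and 9.41 on the control array, and Cox8c, with 3.18 on the knockdown array and 2.90 on the control array, did not stand well above background in either group. All 5 muscle markers examined were detected in both groups, with summed signals of 6998 on the knockdown array and 7027 on the control array. Their differences ran from -0.77 for Ttn to 0.90 for Myh1, and Ckm, the muscle creatine kinase, was at 0.37. The part of muscle-like cells in the 3 muscle isoforms was not tested.

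The 4 complex IV subunits with no isoform of their own had a median of 0.20. Cox6c had 68123 on the knockdown array and 57456 on the control array, a difference of 0.24. Cox5b, the zinc-binding subunit, was at 0.22 and Cox5a at 0.18. Cox7c was the lowest, with 12150 on the knockdown array and 11499 on the control array, and its probes gave 0.06 and 0.10. The widely expressed, restricted and single-gene subunits therefore had medians between 0.20 and 0.26.

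**Figure D2:**
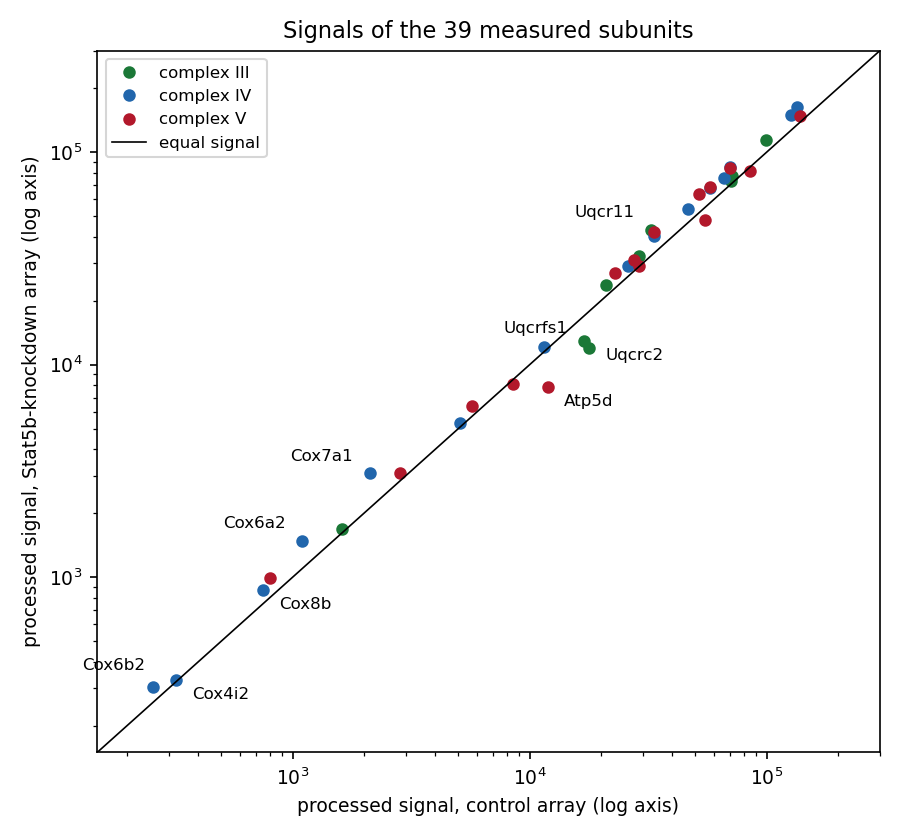
Processed signal of the 39 measured subunits on the Stat5b-knockdown array (vertical) against the control array (horizontal), both on log axes, with complexes III, IV and V by colour and a line of equal signal. All complex IV points lie above the line, and Uqcrc2, Uqcrfs1 and Atp5d lie below it.

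Complex V was the most divided, with 10 of 15 genes above 0, 5 below and a median of 0.16. The parts of the enzyme differed in their medians. The F1 head, where ATP is made, had 2 of 5 genes above 0 and a median of -0.00057, the value of Atp5b. The membrane small subunits had 3 of 3 above 0 and a median of 0.27. The c ring that turns with the proton flow had 2 of 3 above 0 and a median of 0.09. The peripheral stalk that holds the head still had 3 of 4 above 0 and a median of 0.23.

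Within the head, Atp5d, the delta subunit of the central stalk, was the lowest of all members. Its signals were 7855 on the knockdown array and 11908 on the control array, or 65.9% of control (-0.60 ± 0.20). Its other probe had 8.11 on the knockdown array and 12.08 on the control array, not well above background. The value therefore rests on 1 probe. The coding end of that probe, 41 bases from a gene on chromosome 10, is shown with the stop codon in capitals.
Atp5d probe, coding end: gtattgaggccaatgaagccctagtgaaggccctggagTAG

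Atp5e, the epsilon subunit beside delta in the central stalk, was on the other side of 0, with 68926 on the knockdown array and 57429 on the control array (0.26 ± 0.20). The catalytic subunit gene Atp5b had 29013 on the knockdown array and 28997 on the control array, and its 3 probes lay between -0.01 and 0.01. Atp5a1, the alpha subunit that alternates with beta in the head, had 31212 on the knockdown array and 27534 on the control array, a difference of 0.18 ± 0.14. Atp5c1, the gamma subunit that turns within the head, had 81158 on the knockdown array and 85133 on the control array, a difference of -0.07. The genes of this one subassembly thus ran from -0.60 to 0.26.

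The c ring is built from a single mature protein that Atp5g1, Atp5g2 and Atp5g3 all encode. Atp5g1 had 27090 on the knockdown array and 22837 on the control array, with 3 probes from 0.17 to 0.31. Atp5g3 had 8108 on the knockdown array and 8515 on the control array, with probes at -0.15 and 0.01, so its mean of -0.07 changed sign where only its brightest probe was taken. Atp5g2 is the sole member spotted 10 times on each array. Its spots ran from 140384 through a median of 148592 to 158036 on the knockdown array, and from 132251 through 138674 to 149340 on the control array. The spots of the 2 arrays overlapped, and the difference of their means was 0.09 ± 0.06. Related copies of these genes may share signal on the array, so their single values are uncertain.

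In the peripheral stalk, Atp5o, which encodes the protein OSCP at the top of the stalk, had 42058 on the knockdown array and 33545 on the control array. Its difference of 0.32 ± 0.14 lay just past the size rule, with probes at 0.26 and 0.39, and fell short of it under median scaling and when the brightest probe stood for the gene. Atp5j, the coupling factor F6, had 994 on the knockdown array and 807 on the control array and was at 0.30 ± 0.20, just short of the rule. That mean joins a probe at 0.16, with 37194 on the knockdown array and 33365 on the control array, to one at 0.44, with 26.6 on the knockdown array and 19.5 on the control array. It was 0.16 when brighter probes, the brightest probe or RefSeq probes were used alone and 0.10 after normexp background correction. Atp5f1, subunit b, was at 0.16, but its 3 probes gave -0.05, 0.17 and 0.35 and so fell on both sides of 0, and brighter or RefSeq probes alone gave 0.26. Atp5h, subunit d, was the one stalk gene below 0, with 47779 on the knockdown array and 54817 on the control array (-0.20 ± 0.12). Its 3 probes gave -0.26, -0.19 and -0.14. Of these, 2 overlap by 14 bases, shown in capitals, so they are not fully separate readings of this gene on chromosome 11.
Atp5h probe at -0.26: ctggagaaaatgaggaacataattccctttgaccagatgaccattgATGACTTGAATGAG
Atp5h probe at -0.19: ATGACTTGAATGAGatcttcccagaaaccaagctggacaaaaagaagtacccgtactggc

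The membrane small subunits were Atp5k, Atp5l and Atp5j2. Atp5k, subunit e, had 63221 on the knockdown array and 52032 on the control array, and its 2 probes, which share 49 bases, gave 0.27 and 0.29. Atp5l, subunit g, had 84159 on the knockdown array and 69954 on the control array, a difference of 0.27. Atp5j2, subunit f, had 3099 on the knockdown array and 2845 on the control array, with probes at 0.01 and 0.23 and a mean of 0.12. Subunits e and g, which sit together where ATP synthase dimers meet, thus had nearly the same difference. Members elsewhere had like values, such as Atp5e at 0.26 and Cox4i1 at 0.28, so this likeness is not particular to the pair.

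The 4 members that name no subunit were spread around 0. Cox7a2l, a factor that joins complexes III and IV into supercomplexes, had 43890 on the knockdown array and 37669 on the control array, a difference of 0.22. Atp5sl was at 0.04 and Atp5s at -0.10. The pseudogene Atp5c1-ps had 9799 on the knockdown array and 11053 on the control array, a difference of -0.18, beside -0.07 for its parent Atp5c1. Its probe, from chromosome 13, is shown because whether it also reads the parent transcript was not tested.
Atp5c1-ps probe: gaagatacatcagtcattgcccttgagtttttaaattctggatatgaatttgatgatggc

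The sizes of these differences can be set against the technical spread that the arrays hold. The SD of a difference over replicate spots of 1 probe was 0.0823 (297 probes). The SD over different probes of 1 gene was 0.102 for the 14 subunits with several measured probes, against 0.310 for all 7233 such genes and 0.101 for 580 such genes read by bright probes. In 11 of the 14 subunits, all probes had the same sign. The scanner's own error had a median of 0.204 over the members, and 17 of the 43 differences were no larger than their own error. What separate cultures would add was not measured.

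Most subunit genes had high signals on these arrays, where differences spread less widely than at low signals. Among 2138 other genes with a mean log2 level of 3 or more, 48.2% were above 0 and the median was -0.01. Past the size rule were 13.1% of them upward and 15.5% downward, and 0.327% were 2-fold higher and 1.22% 2-fold lower. The 31 subunits at such levels had a median of 0.17, with 24 above 0. Past the size rule were 2 of the 31 upward (6.45%) and 3 downward (9.68%). At a level of 6 or more, 16 of 18 subunits were above 0, with a median of 0.24, while 38.8% of 317 other genes were, with a median of -0.04. Of these 18 subunits, 15 lay above 0.07, the upper quartile of the other genes. The size rule was passed upward there by 2 of the 18, Uqcr11 and Atp5o (11.1%), against 2.52% of the other genes, and downward by 0, against 12.3%. At levels from 4 to below 6 it was passed upward by 0 of 11 subunits, against 11.9% of 933 other genes. Downward it was passed there by 3 of the 11, Atp5d, Uqcrc2 and Uqcrfs1, against 16.0% of the other genes. Set against genes of like level, the share of subunits past the rule upward thus depended on the level. At a level of 6 or more it was above that of other genes, by 2 subunits. It was below that of other genes at levels from 4 to below 6 and over all levels of 3 or more. All 10 complex IV genes at a level of 3 or more were above 0.

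**Figure D3:**
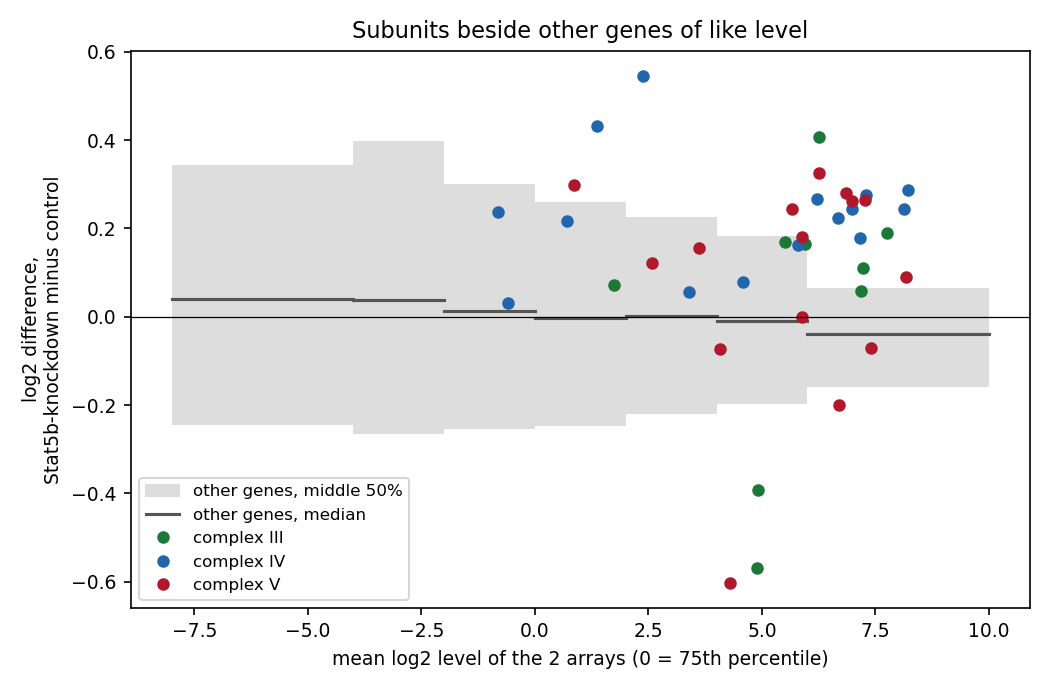
Log2 difference, Stat5b-knockdown minus control, of the 39 measured subunits by complex (vertical) against the mean log2 level of both arrays, where 0 is the 75th percentile (horizontal). Grey boxes and bars give the middle 50% and the median of all other genes of like level; at levels of 6 and more the subunit median is 0.24 and that of other genes -0.04.

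Transcripts that serve the same complexes without belonging to the members did not all share this direction. The mitochondrially encoded subunits were close to 0: the 4 measured were CYTB of complex III at -0.05, COX1 and COX2 of complex IV at -0.02 and -0.08, and ATP8 of complex V at 0.08. Their median was -0.03, beside 0.18 for the 39 nuclear subunits. Of 6 partner genes outside the naming rule, 5 were measured, with a median of 0.14. Cycs, the cytochrome c that shuttles between complexes III and IV, was at 0.22, and Atpif1, an inhibitor of ATP synthase, at 0.18. Ndufa4, now counted as a complex IV subunit, was at -0.07, unlike the 15 complex IV members.

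Assembly factors were mixed. Counts past the size rule in this and the following lists stand beside 22.3% higher and 19.7% lower among all genes. For complex V, 2 of 5 were lower past the size rule and 0 higher, with a median of -0.07. Atpaf1, a chaperone of the beta subunit during assembly of the F1 head, had 672 on the knockdown array and 1479 on the control array with its brighter probe. Its difference was -1.13 ± 0.15, with probes at -1.14 and -1.11, which is larger than that of any member. Tmem70, needed for c ring assembly, was at -0.38. For complex IV, 24 factors had a median of -0.01, with 4 higher past the size rule and 2 lower. Pet100 at 0.73, Coa4 at 0.55, Coa3 at 0.40 and Higd2a at 0.37 were higher, and Sco1, a copper chaperone, at -0.69 and Coa7 at -0.47 were lower. For complex III, 6 factors had a median of 0.20. Lyrm7, a chaperone of the Rieske protein, was at 0.69, but 1 of its 2 measured probes gave 0.13. Ttc19, which clears fragments of the Rieske protein, was at -0.45.

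Regulators of respiratory genes had a median of -0.10 over 15 genes, with 7 above 0 and 8 below. Past the size rule, 5 were lower (33.3%, against 19.7% of all genes) and 3 higher (20%, against 22.3%). Tfam, which packages and transcribes mitochondrial DNA, was the lowest at -0.75 ± 0.14, with 827 on the knockdown array and 1332 on the control array in its brighter probe. Tfb2m, a factor of mitochondrial transcription, was at -0.71, and Polg, the polymerase that copies mitochondrial DNA, at -0.58. Nrf1 and Gabpa, transcription factors that bind promoters of respiratory genes, were at -0.63 and -0.40. The probes of Nrf1 ran from -0.84 to -0.24 and those of Gabpa from -0.67 to -0.07, so not all passed the rule. Tfb1m at 0.53, Ppargc1b at 0.41 and Yy1 at 0.37 were higher, the last with probes from 0.16 to 0.76.

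The other respiratory complexes and the mitochondrial ribosome were set beside complexes III to V. Complex I had 31 of 36 measured genes above 0 and a median of 0.22, with 7 higher past the size rule and 1 lower, Ndufv2 at -0.70. The higher ones were Ndufs3 at 0.59, Ndufc1 at 0.48, Ndufb2 at 0.47, Ndufa13 at 0.42, Ndufb9 at 0.35, Ndufa1 at 0.34 and Ndufa6 at 0.33. Some of these means join unlike probes, from 0.17 to 0.97 for Ndufb2 and 0.28 to 0.57 for Ndufa13. Those of Ndufv2 were at -1.24 and -0.15. Both probes of Ndufs3 passed the rule, at 0.36 and 0.82. Complex II had a median of 0.28 over 4 genes, with Sdhc at 0.43 and Sdhd at 0.36 higher and Sdha, its flavoprotein, lower at -0.39. The 78 mitochondrial ribosomal protein genes had 34 above 0 and a median of -0.05, with 7 higher past the size rule and 9 lower. Their differences ran from -1.60 to 0.59. These lists are set side by side as descriptions, and no difference between them was tested.

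**Figure D4:**
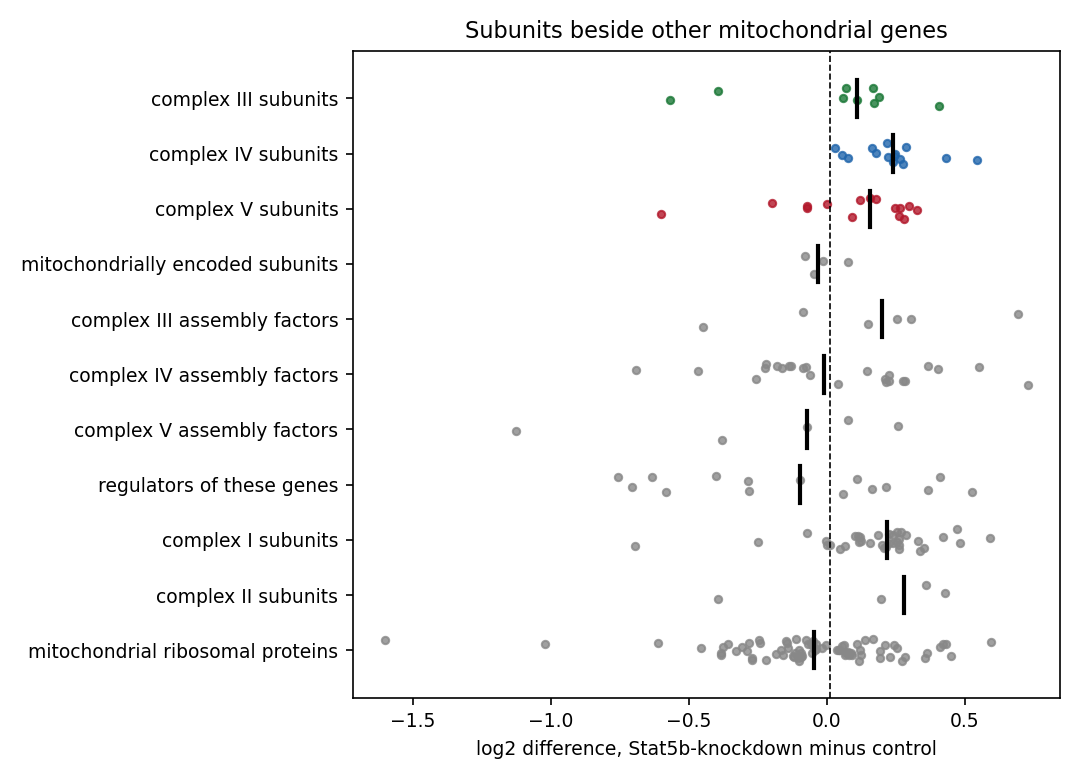
Log2 difference, Stat5b-knockdown minus control (horizontal), of each measured gene of complexes III, IV and V and of 8 other mitochondrial gene lists; black bars are list medians and the dashed line is the median of all genes measured, 0.01. The medians are 0.24 for complex IV, 0.22 for complex I, -0.03 for mitochondrially encoded subunits and -0.05 for mitochondrial ribosomal proteins.

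Promoter sequence was available in RefSeq's table for build GRCm38.p6 for 31 of the 41 subunit genes, as 34 windows of 300 bases, 250 before the start of the transcript and 50 after it. A total of 4 motifs were searched on both strands, and 0 of their matches overlapped. TTCNNNGAA, the pattern that STAT5 and other STAT proteins bind, was in 4 windows (11.8%), against 8.3% of 32851 windows in the table and 5.75% of the 17136 windows whose share of G and C is at or above the lower quartile of the subunit windows. The 4 windows belong to Atp5d, with 2 overlapping windows, Atp5f1 and Atp5o. The NRF1 motif, GCGCA and GCGC with any base N between them, was in 23.5% of subunit windows, against 4.6% of all windows and 8.26% of the windows rich in G and C. By complex, it was in 1 of 5 windows of complex III (20%), 1 of 12 of complex IV (8.33%) and 6 of 17 of complex V (35.3%). The share in complex IV was thus near that of the windows rich in G and C. CCGGAAG of ETS factors such as GABPA was in 29.4%, against 8.86% and 14.3%, and AAGATGGCG of YY1 in 5.88%, against 1.4% and 2.23%.

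Of the 7 members past the size rule, 5 had a window to search, Uqcrc2 and Cox6a2 not. Of the 5, Atp5d and Atp5o hold the STAT pattern, and their differences had opposite signs, at -0.60 and 0.32. Both promoters are printed 5′ to 3′ on the strand of the gene, with the STAT pattern, and in Atp5o also the last capital run, an NRF1 motif, in capitals. That of Atp5d lies at chr10:80142065-80142364 on the plus strand and that of Atp5o at chr16:91931581-91931880 on the minus strand. A match is a run of letters and not a measured binding site.
Atp5d promoter: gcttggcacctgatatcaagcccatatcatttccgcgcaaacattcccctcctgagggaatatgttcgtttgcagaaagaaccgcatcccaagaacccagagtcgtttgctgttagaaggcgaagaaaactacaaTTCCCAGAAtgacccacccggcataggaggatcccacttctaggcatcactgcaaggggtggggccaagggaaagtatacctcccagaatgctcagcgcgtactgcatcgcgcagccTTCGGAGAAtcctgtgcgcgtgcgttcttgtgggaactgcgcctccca
Atp5o promoter: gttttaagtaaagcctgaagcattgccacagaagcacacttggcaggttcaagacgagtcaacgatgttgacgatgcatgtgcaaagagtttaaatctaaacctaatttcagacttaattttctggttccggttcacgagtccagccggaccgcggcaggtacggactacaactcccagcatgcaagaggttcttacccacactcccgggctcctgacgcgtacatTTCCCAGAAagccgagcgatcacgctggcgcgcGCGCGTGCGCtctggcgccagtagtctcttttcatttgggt

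The promoters of Cox7a1 and Uqcrfs1, which passed the size rule in opposite directions, hold 0 of the 4 motifs in these windows, while that of Uqcr11 holds 1 ETS motif, in capitals. Cox7a1 is at chr7:30183921-30184220 on the plus strand, Uqcrfs1 at chr13:30545267-30545566 on the minus strand and Uqcr11 at chr10:80406772-80407071 on the minus strand. Cox6a1, chosen after the motifs were seen for holding 2 NRF1 motifs and 1 ETS motif in that order, is at chr5:115348909-115349208 on the minus strand.
Cox7a1 promoter: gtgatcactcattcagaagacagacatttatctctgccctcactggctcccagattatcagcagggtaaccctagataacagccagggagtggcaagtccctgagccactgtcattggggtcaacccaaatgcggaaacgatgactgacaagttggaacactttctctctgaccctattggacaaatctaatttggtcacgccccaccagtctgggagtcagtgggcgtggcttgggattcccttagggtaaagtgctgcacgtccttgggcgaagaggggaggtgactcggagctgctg
Uqcrfs1 promoter: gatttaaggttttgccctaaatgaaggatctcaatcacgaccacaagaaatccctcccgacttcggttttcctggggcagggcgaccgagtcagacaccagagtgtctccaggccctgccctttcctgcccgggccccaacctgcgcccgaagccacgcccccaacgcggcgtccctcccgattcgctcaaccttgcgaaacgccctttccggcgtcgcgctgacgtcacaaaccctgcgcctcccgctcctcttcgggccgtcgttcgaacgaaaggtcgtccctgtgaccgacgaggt
Uqcr11 promoter: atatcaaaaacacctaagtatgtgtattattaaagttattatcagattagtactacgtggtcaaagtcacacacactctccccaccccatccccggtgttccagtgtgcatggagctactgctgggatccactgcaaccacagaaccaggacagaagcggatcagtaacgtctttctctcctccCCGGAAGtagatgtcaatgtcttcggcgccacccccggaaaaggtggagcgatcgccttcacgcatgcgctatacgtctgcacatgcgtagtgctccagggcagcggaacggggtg
Cox6a1 promoter: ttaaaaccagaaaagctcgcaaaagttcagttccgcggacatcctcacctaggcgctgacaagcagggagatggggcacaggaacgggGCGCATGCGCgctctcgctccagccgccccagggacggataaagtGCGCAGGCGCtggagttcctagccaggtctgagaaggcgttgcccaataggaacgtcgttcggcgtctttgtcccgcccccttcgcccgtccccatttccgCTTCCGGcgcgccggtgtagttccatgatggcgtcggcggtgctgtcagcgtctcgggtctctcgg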

How the data were processed

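Total RNA of 1 Stat5b-knockdown and 1 control sample was labelled with Cy3 and read on 1 single-colour Agilent slide. Per the file headers, the authors deposited intensity values from Agilent Feature Extraction 12.1.0.3 (protocol GE1_1200_Jun14, design build mm9). The processed signal is corrected for background by that software. The authors also deposited a log2 table, which is the log2 processed signal less 8.94 on each array (tolerance 0.001, met by 100% of 56305 probes with 1 spot). Its column median was -3.83 for the knockdown array and -3.83 for the control array, and it served as an alternative.

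Spots with outlier flags were removed (94 on the knockdown array, 112 on the control array). Signals under 1 were set to 1, log2 values were averaged over spots of a probe, and each array's 75th percentile over 56594 probes was subtracted. Symbols are those of the deposited table. A gene's value averages those of its probes that both arrays flag as well above background. Python 3.11.15 with pandas 2.3.3 was used, and limma 3.58.1 in R 4.3.3 for the normexp alternative, which took the median signal because no mean signal is in the files used. The steps were tested on simulated data. Promoter sequences and names came from RefSeq tables of GRCm38.p6, and no array coordinates of mm9 were used.

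The members and lists were chosen with earlier results of these data known. Every member is accounted for. Signals are given for members past a log2 difference of 0.32, those not well above background and the ends of each role. Genes of other lists are named where past that size, with a few more named for their role. Mitochondrial ribosomal proteins are given as counts and a range. Markers are given as counts and summed signals, with some of them named.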

Additional observations from a re-analysis of the deposited data

How the results depend on the processing

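The results were recomputed under 10 alternatives: normexp background correction, median scaling, quantile normalization, no filter on dim probes, brighter probes alone, the brightest probe of a gene, RefSeq probes alone, the authors' deposited table, leaving out the last 64 rows of each array, and updated symbols. The member median ran from 0.16 to 0.21, that of complex III from 0.09 to 0.15, of complex IV from 0.22 to 0.27 and of complex V from 0.12 to 0.18. Between 30 and 35 members were above 0, and 0 reached 2-fold under any of them. The number of members measured changed too. Without the last 64 rows, 30 of 38 measured members were above 0, and without the filter on dim probes 35 of 45. The count of members higher past the size rule (a log2 difference of 0.32) was 4 and became 7 with quantile normalization, which added Atp5j, Cox6a1 and Cox7a2. It was 3 under median scaling and under the brightest-probe rule, where Atp5o fell short. The count lower past it was 3 throughout, but without the filter on dim probes Uqcrfs1 was at -0.14 and Cox7b2 took its place. That setting moved the median of all genes to 0.10, against 0.01, and the member median was then 0.17. Of 420 single-gene values, 12 moved by more than the spread between probes. In 5 values of 2 genes near 0 the sign changed: Atp5b (-0.00057) was at 0.02 with quantile normalization and 0.0025 in the authors' deposited table, and Atp5g3 (-0.07) was at 0.01 with the brightest probe, with RefSeq probes and without the last 64 rows. No member past the size rule changed sign. No paired analysis was possible because each group has 1 array, and for the same reason no array could be left out. Dim isoforms such as Cox7b2 and Cox8c could not be measured at this signal over background.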
